A study of Rattus norvegicus with 4 samples.

Results

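Short-chain fatty acid and lactate handling was followed through the genes Slc16a1, Slc16a3, Slc5a8, Bsg, Ffar2, Ffar3, Ldha and Ldhb, which were taken from the array by the gene name printed for each probe, with Gpr43 read as Ffar2 and Gpr41 as Ffar3. Of these 8 genes, 7 had a probe under their name and Slc5a8 had none, so Slc5a8, the sodium-coupled carrier of short-chain fatty acids, was not analysed here. The 7 genes had 1 probe each, out of 41012 gene probes on the array. The study compared small intestine of male Wistar rats, an outbred stock, that drank tap water holding 1.0% (v/v) compost extract with that of male Wistar rats that drank water only, with 2 rats and 2 arrays in each group. The rats of both groups were 3 weeks old at the start and, after 12 weeks of drinking either water, 15 weeks old at sampling, and Peyer's patches, the large lymphoid clusters of the gut wall, had been excluded from the tissue of both groups. The extract was a 100-fold watery dilution of a fermented compost held warm, at 60 °C, for no less than 10 h before use. Its own content of lactate and of butyrate was given as below 50 ppm each.

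Short-chain fatty acids such as acetate, propionate and butyrate are made by gut bacteria from fibre, and lactate comes both from bacteria and from glycolysis in the host's cells. They enter and leave cells with a proton on the monocarboxylate carriers MCT1 and MCT4, which reach the cell surface together with the glycoprotein basigin. Lactate dehydrogenase, a tetramer of A and B subunits, interconverts pyruvate and lactate, while the receptors FFAR2 and FFAR3 sense short-chain fatty acids outside the cell and are known from enteroendocrine cells, with FFAR2 also in neutrophils and other leukocytes and FFAR3 in peripheral neurons.

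Each array gave an intensity for every spot. A level here is the log2 of that intensity minus the 75th percentile of the array, so 0 is the 75th percentile. Levels of different genes are not compared as amounts of RNA. Summed levels and differences between 2 genes are given to compare arrays, and the brightest probes weigh most in a sum. The part of a gene in a sum, or a gene called dimmest, refers to probe signal and not to RNA or cells. Between 66.5% and 71.0% of gene spots per array were flagged by the scanner software as well above background. The 4 arrays lay on 1 slide, the compost rats at positions 3 and 4 and the control rats at positions 1 and 2, so position and group cannot be told apart. The labels describe individual rats, and the number of arrays limits the precision of every value. Fabp2 and Vil1 of enterocytes and the ileal genes Fabp6, for a bile acid binding protein, and Slc10a2, for the ileal bile acid carrier, were well above background on all 4 arrays. Of 9 enterocyte markers measured 8 were lower in compost rats, with a median difference of -0.46 on the log2 scale. Of all 24315 genes, 13015 were lower in compost rats. For Alpi and Lct, both among the 8, neither compost rat gave a spot well above background. Both were thus kept only through the control rats, where they are high. All 5 B and plasma cell markers measured were higher in both compost rats than in either control rat, at a median difference of 1.69. Over all genes, 12.7% lay higher in both compost rats. Ms4a1, 1 of the 5, was well above background in no control rat, so it was kept only through the compost rats, where it is high. Cd22 cleared the background in 1 control rat. The summed level of the 5, as a multiple of the array's 75th percentile, was 1.96 and 2.18 in compost rats, against 0.424 and 0.609 in control rats. The part of these cell types in the values below was not tested.

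None of the 7 genes passed in compost against control rats (adjusted p = 0.9999 for each by limma, over 28417 probes). Of all probes tested, 0% were called higher and 0% lower at an adjusted p under 0.05, while 3.21% had an unadjusted p under 0.05, and none of the 7 genes was among these. Signal was well above background on all 4 arrays for every one of the 7 genes, and no spot of theirs was saturated or an outlier. The difference was above 0 for 5 genes and below 0 for 2, with a median of 0.12 on the log2 scale, against a median of -0.02 over 24315 genes or unnamed transcripts. Groups did not overlap for 1 of the 7 genes, Ffar3, which was lower in both compost rats, where 15.2% of all genes lay lower in both compost rats and 12.7% lay higher in both. The members' share of genes with separate groups, 14.3%, thus stood below the 27.9% of all genes.

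**Figure D1:**
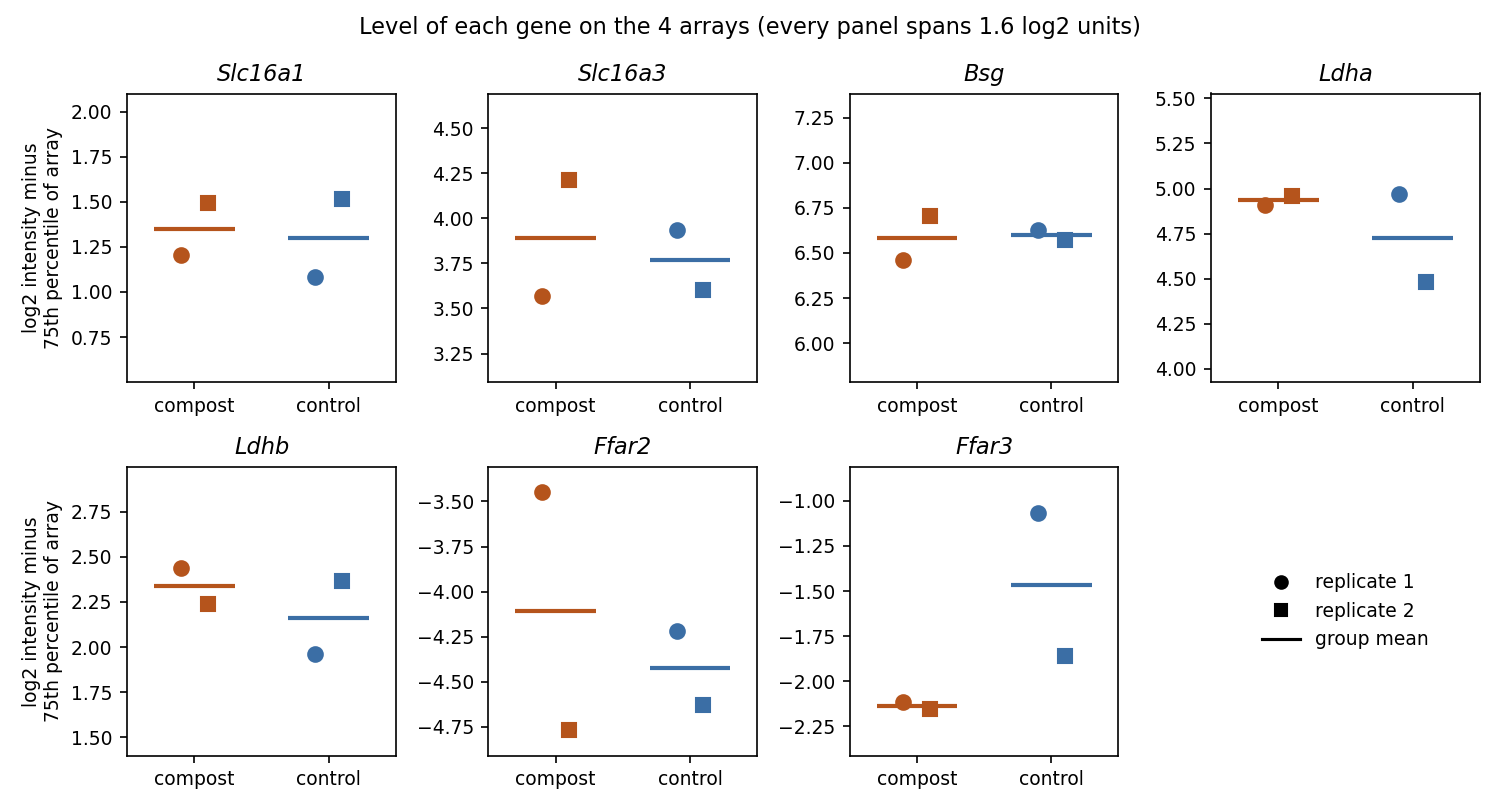
Log2 intensity minus the 75th percentile of the array (vertical axis) for the 7 genes in compost rats (left) and control rats (right), with circles for replicate 1, squares for replicate 2 and a line for each group mean. Every panel spans 1.6 log2 units, and Ffar3 is the panel in which the compost rats, at -2.12 and -2.16, lie under the 2 control rats.

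Neither carrier of the set nor their partner protein had separate groups. Slc16a1, which encodes MCT1, the carrier of lactate, pyruvate and butyrate found in most tissues, had log2 levels of 1.20 and 1.50 in compost rats, against 1.08 and 1.52 in control rats. Each control rat thus had a compost rat close to it, and the difference was 0.05 ± 0.24 (SE), with a 95% interval of -0.59 to 0.69. On the fold scale the interval ran from 0.666 to 1.61, so that a change beyond about that size would lie outside it, while smaller ones cannot be told from none.

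Slc16a3, which encodes MCT4, the carrier used by glycolytic cells to export lactate, had log2 levels of 3.57 and 4.21 in compost rats, against 3.94 and 3.60 in control rats. The compost rats were the highest and the lowest of the 4, and the control rats lay between them. The difference was 0.12 ± 0.29 (SE), with a 95% interval of -0.65 to 0.89. It was -0.20 without compost replicate 2 and 0.44 without compost replicate 1, so its direction rested on which rat was left out.

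Bsg, which encodes basigin, the partner protein of both carriers, had log2 levels of 6.46 and 6.71 in compost rats, against 6.63 and 6.57 in control rats. It varied least of the 7 genes, over a range of 0.24 across the 4 arrays. The difference was -0.02 ± 0.19 (SE, 95% interval -0.52 to 0.48), and its sign turned with quantile scaling (0.025), with scaling to the median (0.019) and with normexp background correction (0.010). Taken within each array, Slc16a1 minus Bsg was -5.26 and -5.21 in compost rats, against -5.54 and -5.06 in control rats. The compost rats thus lay between the control rats, and the contrast differed by 0.07 (exact permutation test, two-sided, p = 1.00 over 6 divisions of the arrays, where the smallest possible p is 0.333). The other SLC16 carriers, Slc5a12 and embigin, the second partner protein of these carriers, gave 8 measured genes out of 14, of which 0 passed, 5 were higher and 3 lower, with a median difference of 0.10 that turned to -0.037 when compost replicate 1 was left out and to -0.091 without control replicate 2. Slc16a14, an SLC16 family member whose substrates are little known, had -5.63 and -5.88 in compost rats, against -5.02 and -5.25 in control rats, and its spot cleared the background in 1 compost rat. Slc5a12, a low-affinity sodium-coupled carrier of lactate, had 1.33 and 1.56 in compost rats, against 1.64 and 2.26 in control rats. Slc16a13, another family member, had 0.18 and 0.24 in compost rats, against 0.57 and 0.34 in control rats. These 3 genes, picked for the smallest p of the list, were lower in each compost rat than in either control rat. They were the only genes of the 8 measured with separate groups. Over all genes, 15.2% lay lower in both compost rats. Their differences, in the order named, were -0.62 ± 0.21, -0.51 ± 0.28 and -0.25 ± 0.19 (SE), none past the test.

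Ldha and Ldhb are shown with the sequence around their starts because the subunits they encode are the pair contrasted below. A further reason is that ACGTG and CACGTG are textbook features of glycolytic promoters. ACGTG is a form of the core of the site read by hypoxia-inducible factors, and CACGTG is the E-box read by MYC and other factors. The windows run from 250 bases before to 50 bases after the start in RefSeq (GRCr8; Ldha at chr1:106507842-106508141, plus strand, Ldhb at chr4:177177359-177177658, minus strand). They are written 5′ to 3′ along the gene, with each match to ACGTG on either strand, or to CACGTG, in capitals.
Ldha: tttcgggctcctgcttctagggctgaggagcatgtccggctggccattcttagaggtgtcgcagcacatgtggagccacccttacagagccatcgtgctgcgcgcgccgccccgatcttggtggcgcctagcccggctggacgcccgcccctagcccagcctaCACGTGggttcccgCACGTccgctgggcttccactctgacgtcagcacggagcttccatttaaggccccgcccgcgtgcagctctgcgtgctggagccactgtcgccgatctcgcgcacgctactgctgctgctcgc
Ldhb: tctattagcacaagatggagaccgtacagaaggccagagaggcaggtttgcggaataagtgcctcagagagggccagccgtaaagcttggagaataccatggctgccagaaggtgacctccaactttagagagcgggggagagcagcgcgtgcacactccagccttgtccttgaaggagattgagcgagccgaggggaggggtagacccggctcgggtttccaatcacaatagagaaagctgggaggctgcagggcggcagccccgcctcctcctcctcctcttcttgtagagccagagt
The Ldha window held 2 places with ACGTG on either strand, beginning 87 and 73 bases before the start, and the one at 87 was also a CACGTG, which contains ACGTG on both strands. The Ldhb window held neither ACGTG nor CACGTG. Other forms of the core, such as GCGTG, were not searched for in either window. Over 33469 promoter windows of the same length, 19.3% held ACGTG and 6.42% held CACGTG, and among the windows of the 8 genes named at the outset 4 held ACGTG and 3 held CACGTG. These matches describe letters in the window and were not set against binding. The probe sequences themselves were not among the sources used here, so whether the Ldha probe also reads near-identical copies of the gene could not be checked.

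Ldha, the subunit that prevails in glycolytic tissues, had log2 levels of 4.91 and 4.96 in compost rats, against 4.97 and 4.48 in control rats. Control replicate 2 stood apart below the other 3 rats, which lay within 0.06 of each other. The difference between groups was 0.21 ± 0.24 (SE, 95% interval -0.41 to 0.83), and it was -0.037 without control replicate 2. Ldha was the one gene of the set with repeat spots, 10 per array, which show the noise of spots within an array. The spots had a coefficient of variation of 4.62% and 4.09% on the compost arrays, against 4.94% and 4.72% on the control arrays. The highest spot of control replicate 2, at 4.58, lay below the lowest spot of any other array, at 4.80, which is a gap between arrays and so also holds labelling and hybridisation noise, not measured here.

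**Figure D2:**
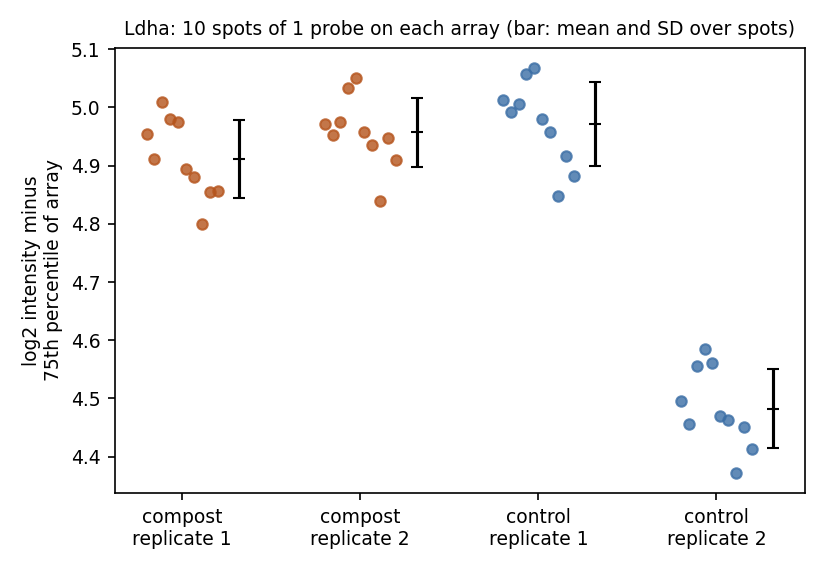
Log2 intensity minus the 75th percentile of the array (vertical axis) for the 10 Ldha spots on each array, with the mean and SD over spots beside them. Spots of both compost arrays and of control replicate 1 lie between 4.80 and 5.07, and those of control replicate 2 between 4.37 and 4.58.

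Ldhb, the subunit that prevails in oxidative tissues such as the heart, had log2 levels of 2.44 and 2.24 in compost rats, against 1.96 and 2.37 in control rats. The groups overlapped, and the lowest of the 4 was control replicate 1, in which Ldha was the highest. The difference was 0.17 ± 0.23 (SE, 95% interval -0.43 to 0.77). Ldha minus Ldhb within each array was 2.47 and 2.72 in compost rats, against 3.01 and 2.11 in control rats. The compost rats lay between the control rats, and the contrast differed by 0.03 (exact permutation test, two-sided, p = 1.00). Its spread was 0.17 in compost rats and 0.64 in control rats (SD, n = 2 each).

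Among related enzymes, all 16 glycolysis genes were measured and 0 passed, with 8 higher and 8 lower and a median difference of 0.01, which was 0.16 without compost replicate 1. Pfkl, the liver-type subunit of phosphofructokinase, had -1.76 and -1.57 in compost rats, against -0.97 and -0.87 in control rats. Its difference of -0.75 ± 0.19 (SE) had the smallest p of that list and did not pass (adjusted p = 0.9999 by limma), while Pfkp, the platelet-type subunit, and Hk2, an inducible hexokinase, differed by 0.43 ± 0.21 and 0.49 ± 0.30. Of the other lactate and pyruvate enzymes 16 of 19 were measured and 0 passed, with 6 higher and 10 lower and a median of -0.03, which was 0.027 without control replicate 2. Pck1, which makes phosphoenolpyruvate in gluconeogenesis, had 0.46 and 0.58 in compost rats, against 3.39 and 1.62 in control rats. It was the lowest difference of that list at -1.98 ± 0.61 (SE), and the control rats differed from each other by 1.77. Pdp2, a phosphatase that turns pyruvate dehydrogenase on, and Pdk2, a kinase that turns it off, were lower in both compost rats, by differences of -0.55 ± 0.18 and -0.34 ± 0.20. Of the 16 measured genes of that list, 4 lay lower in both compost rats and 3 lay higher in both. Over all genes these shares were 15.2% and 12.7%.

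All 9 regulators were measured and 0 passed, with 3 higher and 6 lower and a median of -0.06. Ppargc1a, a coactivator of mitochondrial and gluconeogenic genes, had -4.34 and -3.81 in compost rats, against -2.52 and -3.35 in control rats, a difference of -1.14 ± 0.37 (SE). Ppara, a lipid-sensing nuclear receptor, and Vhl, which marks hypoxia-inducible factors for breakdown, differed by -0.22 ± 0.19 and -0.16 ± 0.18. Hif1a, named here after its values were seen because of the ACGTG matches, had 3.82 and 4.23 in compost rats, against 4.07 and 3.79 in control rats, and the groups overlapped.

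The receptors gave the widest spreads of the set. Ffar3, the receptor that prefers propionate and butyrate, had processed intensities of 228 and 164 in compost rats, against 367 and 209 in control rats. Its log2 levels were -2.12 and -2.16 in compost rats, against -1.07 and -1.86 in control rats, so that the groups were separate, compost below control, with 0.26 between the nearest rats of different groups. The control rats were 0.79 apart, 3 times as far as that gap. The difference was -0.67 ± 0.31 (SE, 95% interval -1.49 to 0.15; unadjusted p = 0.0881, adjusted p = 0.9999 by limma), a level 1.59-fold lower in compost rats. In size it was reached or passed by 5.75% of all genes. It was -0.28 without control replicate 1, -1.07 without control replicate 2 and -0.54 with normexp background correction. In bulk tissue, fewer cells of a type and less RNA per cell cannot be told apart.

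Ffar2, the receptor that prefers acetate and propionate, was the dimmest of the set, with processed intensities of 90.3 and 26.7 in compost rats, against 41.4 and 30.7 in control rats. The raw spot was 2.26 and 1.60 times its local background in compost rats, against 1.63 and 1.56 times in control rats, so that 3 of the 4 readings stood little above it. The software's own error was 10.8% and 18.7% of the intensity in compost rats, against 13.9% and 14.5% in control rats. On the log2 scale Ffar2 lay at -3.45 and -4.77 in compost rats, against -4.22 and -4.63 in control rats. Compost replicate 1 was the highest of the 4 and compost replicate 2 the lowest, 1.32 apart. The difference was 0.31 ± 0.48 (SE, 95% interval -0.96 to 1.59), and it was -0.35 without compost replicate 1, 0.97 without compost replicate 2 and 0.10 with normexp background correction. Ffar2 minus Ffar3 within each array was -1.34 and -2.61 in compost rats, against -3.15 and -2.77 in control rats. The contrast was higher in each compost rat than in either control rat, by 0.98 on average (exact permutation test, two-sided, p = 0.333, the smallest the design allows). The planned contrasts were Ldha minus Ldhb and Slc16a1 minus Bsg, so this contrast was an addition. Slc16a3 minus Bsg, another addition, differed by 0.14 (exact permutation test, two-sided, p = 0.667). Ffar2 minus Ffar3 differed by 0.35 without compost replicate 1, 1.62 without compost replicate 2 and 0.64 with normexp background correction. These alternatives were added after seeing the data.

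Genes listed as markers of neutrophils and monocytes, cells that carry Ffar2, had 5 of 8 measured, 3 higher and 2 lower in compost rats. Whether Ly6g6d, 1 of the 2 lower, marks these cells was not checked. The summed level of the 5 genes, as a multiple of the array's 75th percentile, was 2.26 and 1.10 in compost rats, against 0.617 and 0.871 in control rats. Fcgr3a, an Fc receptor gene also used by natural killer cells, made up 1.61 of the 2.26 in compost replicate 1. Without Fcgr3a the sum was 0.656 and 0.490 in compost rats, against 0.431 and 0.490 in control rats. The calprotectin genes S100a8 and S100a9 were highest in compost replicate 2, the rat with the lowest Ffar2. In compost replicate 1, the rat with the highest Ffar2, the S100a8 spot was not well above background. Itgam ran the other way, at -1.02 and -2.53 in compost rats, against -1.45 and -1.83 in control rats, the same order as Ffar2. It made up 0.494 of the 0.656 in compost replicate 1. Mpo, Csf3r and Cxcr2, the other genes of that list, had probes that did not pass the filters on background and outliers. Neuron and glia markers, of which 6 of 8 were measured, had a summed level of 2.15 and 1.42 in compost rats, against 1.78 and 1.99 in control rats. The part of these cells in the receptor levels was not tested.

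Of the other receptors for short- and long-chain acids and lactate, Ffar4 alone was measured, out of 5 genes. Ffar4, a receptor for long-chain fatty acids, had 2.35 and 2.23 in compost rats, against 1.19 and 1.97 in control rats, a difference of 0.71 ± 0.31 (SE) that did not pass. Leaving out control replicate 1 gave 0.32, and leaving out control replicate 2 gave 1.10. The probes of Hcar2, the receptor for butyrate and ketone bodies, of Ffar1, a receptor for longer-chain fatty acids, and of Olr59, an olfactory receptor gene, were well above background on fewer than 2 arrays, and Hcar1, the lactate receptor, had no probe under its name. The enteroendocrine genes, which mark cells in which both short-chain acid receptors are known, had 8 of 9 measured and 0 passed, with 7 higher and 1 lower and a median of 0.23. The groups were separate, compost above control, for Sct, which encodes secretin, and for the granins Chgb and Chga, by 0.50 ± 0.23, 0.39 ± 0.20 and 0.29 ± 0.24 (SE). These 3 genes had the smallest p of the list by limma. Over all genes, 12.7% lay higher in both compost rats. For every other measured gene of the list the groups overlapped. Among these were Gcg and Pyy, with differences of 0.33 ± 0.39 and 0.17 ± 0.25 (SE). The summed level of all 8 measured genes was 245 and 275 in compost rats, against 217 and 195 in control rats. Sct and Chgb, named above for their separate groups, were the brightest genes of the list on every array and so weigh most in this sum. Sct had log2 levels of 6.30 and 6.67 in compost rats, against 5.85 and 6.13 in control rats. Chgb had 6.38 and 6.11 in compost rats, against 5.95 and 5.76 in control rats. The part of these cells in the Ffar2 and Ffar3 levels was not tested.

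Downstream of uptake, genes that form and oxidise short-chain acyl-CoA or make ketone bodies had 13 of 18 measured and 0 passed, with 5 higher and 8 lower and a median of -0.04, which was 0.040 without control replicate 2. Acss2, which activates acetate in the cytosol, had 0.69 and -0.10 in compost rats, against -0.11 and -0.03 in control rats. Compost replicate 1 alone stood above the rest, and the difference was 0.37 ± 0.31 (SE). Hadh, a short-chain hydroxyacyl-CoA dehydrogenase, and Acsm5, a medium-chain acyl-CoA synthetase, differed by -0.20 ± 0.18 and -0.30 ± 0.28, with Acsm5 well above background in 1 rat of each group. Echs1, the enoyl-CoA hydratase of this pathway, had an outlier spot and was left out.

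Proton and bicarbonate exchange, which supplies and removes the protons that travel with these acids, had 12 of 14 genes measured and 0 passed, with 4 higher and 8 lower and a median of -0.09, which turned to 0.086 when compost replicate 1 was left out and to 0.039 without control replicate 2. Car4, a carbonic anhydrase of the cell surface, had 5.13 and 5.02 in compost rats, against 4.09 and 4.83 in control rats, a difference of 0.62 ± 0.30 (SE). Slc9a3, the brush border sodium-proton exchanger, had 0.83 and -0.45 in compost rats, against 1.88 and 0.60 in control rats. Its groups overlapped, with 1.28 between the compost rats and 1.27 between the control rats. Car12, another surface carbonic anhydrase, also overlapped, at -3.45 and -4.41 in compost rats, against -6.05 and -3.85 in control rats, with a spot well above background in 1 control rat.

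**Figure D3:**
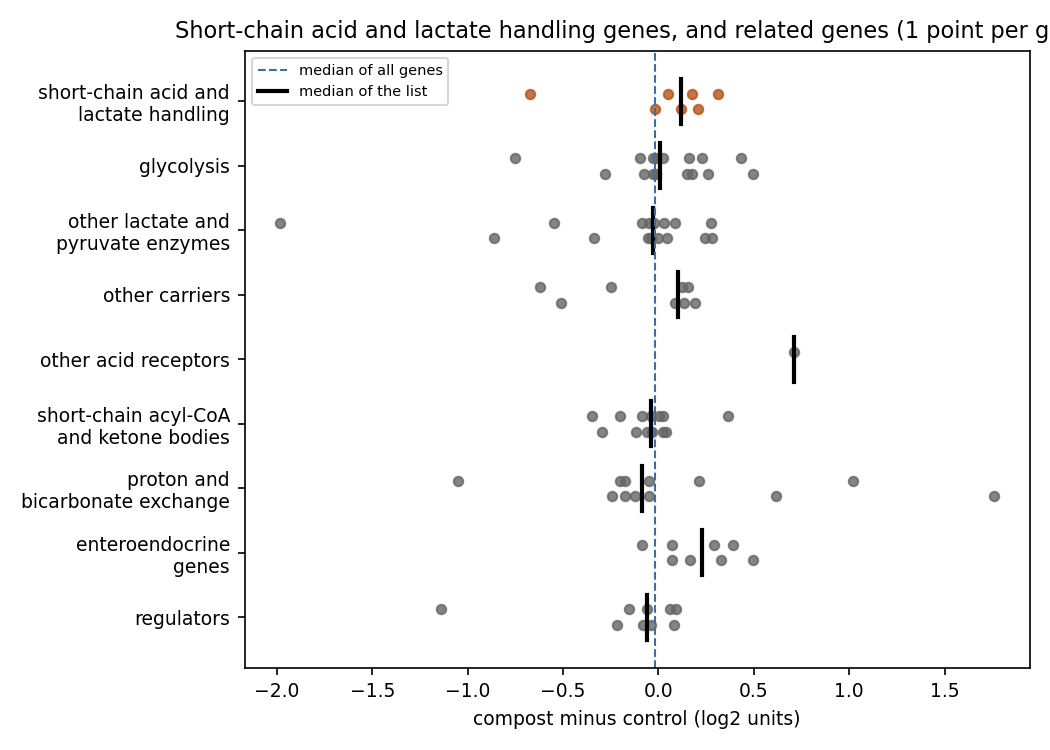
Compost minus control in log2 units (horizontal axis) for each measured gene of the short-chain acid and lactate set and of 8 lists of related genes, with a black bar for the median of each list and a dashed line for the median of all genes, -0.02. The set's own median is 0.12, and none of the points passed the test.

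The gene with the widest range over the arrays was Ffar2, and the genes whose 4 centred levels lay nearest to it, among 22321 genes well above background on all arrays, were Sod3, the transcript BF558220 and Srpx2. The summed absolute distance over the 4 arrays was 0.056 for Sod3, 0.076 for BF558220 and 0.14 for Srpx2, on the log2 scale. Sod3, an extracellular superoxide dismutase, had 1.10 and -0.25 in compost rats, against 0.30 and -0.09 in control rats, again with compost replicate 1 the highest and compost replicate 2 the lowest. With 4 arrays such likeness is a description, and no correlation is given.

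**Figure D4:**
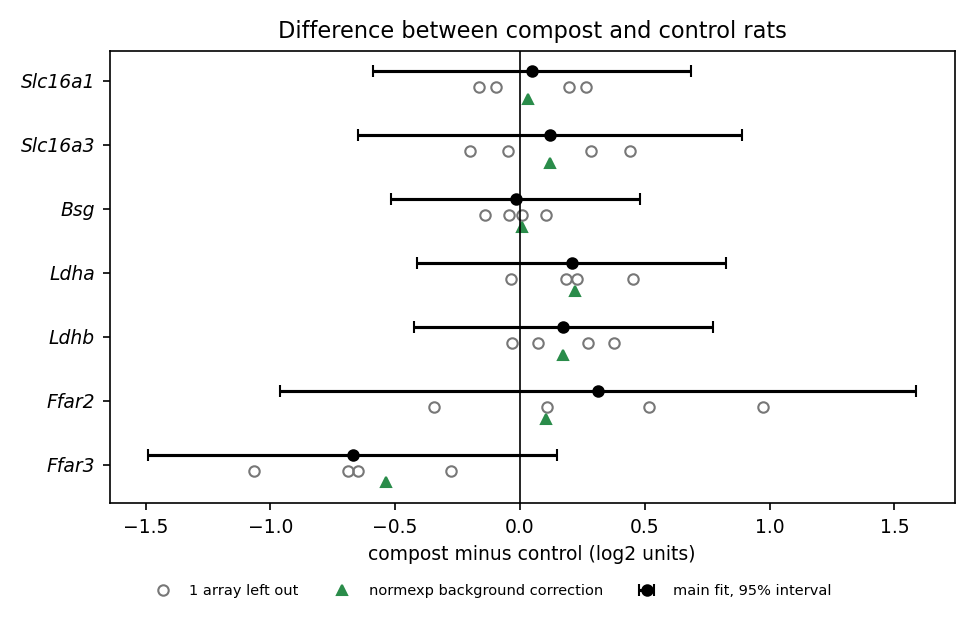
Compost minus control in log2 units (horizontal axis) for each of the 7 genes, with a filled circle and bar for the fit to all 4 arrays and its 95% interval, open circles for the fits without 1 array, and a triangle for normexp background correction. All 7 intervals include 0, and for 6 genes the open circles fall on both sides of 0, the exception being Ffar3, at -1.07 to -0.28.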

How the data were processed

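The scanner files came from Agilent Feature Extraction 9.1.3.1 on 1-colour (Cy3) arrays, per the file headers. They hold a processed intensity per spot that the software had corrected by spatial and multiplicative detrending, the raw mean intensity, the local background intensity, an error and flags, on a linear scale with no scaling between arrays. The authors' deposited value table holds the same processed intensity to within 0.5% (largest difference 0.497%). Of 43379 gene spots per array, outliers were left out, which removed 31 of 41012 probes. Spots of a probe were averaged as log2 intensity, from which the array's 75th percentile, taken across gene probes, was subtracted. The 28417 probes that cleared the background flag on 2 or more arrays were fitted with limma 3.58.1 in R 4.3.3 (lmFit, eBayes, two-sided, Benjamini-Hochberg over all probes, threshold 0.05). The fit was tested on simulated data. Intervals are 95% moderated t intervals.

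A gene was represented by its brightest kept probe. Names were updated through a RefSeq table of GRCr8, used for names and promoters: accessions placed 10835 probes, symbols 5201 and synonyms 3488, and 21488 kept the file's name. The files name no genome build, and the only positions given are those of the RefSeq promoter windows. Lists are described by counts and medians, without a set test. All members were named, and from each list the up to 3 genes with the smallest p. The members and lists were chosen with earlier results of these data known. Alternatives were other scaling, background correction, filters, variance models, a replicate block and leaving out each array.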

Additional observations from a re-analysis of the deposited data

How the results depend on the processing

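No gene of the set passed under any of the alternatives run, with an adjusted p of at least 0.477 by limma. Without 1 array the differences ranged, on the log2 scale, from -0.17 to 0.27 for Slc16a1, -0.20 to 0.44 for Slc16a3, -0.14 to 0.10 for Bsg, -0.35 to 0.97 for Ffar2, -0.037 to 0.45 for Ldha and -0.031 to 0.38 for Ldhb, so each turned sign, while Ffar3 kept its direction at -1.07 to -0.28. Bsg also turned to 0.025 with quantile scaling, 0.019 with median scaling and 0.010 with normexp background correction. Within arrays, Ldha minus Ldhb ranged from -0.42 to 0.48 and Slc16a1 minus Bsg from -0.18 to 0.31 without 1 array. With 3 arrays left, which separate more readily, genes of the set with separate groups numbered 1 to 2 above and 2 to 3 below, where 22.6% to 38.0% of all genes lay above and 28.8% to 43.6% below. Without 1 array the list medians turned sign for the other carriers (-0.091 to 0.024), the other lactate and pyruvate enzymes (-0.10 to 0.027), the acyl-CoA genes (-0.16 to 0.040) and proton exchange (-0.11 to 0.086). A fit without 1 array leaves a group of 1 rat, which is then assumed to vary like the other group, so the calls and p-values of such fits rest on the spread of 1 pair of rats. Probes called higher were 1 with normexp background correction (LOC500183, named after its value was seen) and 0 to 2 without 1 array (Gzmb and BI395793 without control replicate 2, likewise), and none was called lower. Probes with an unadjusted p under 0.05 numbered 913 with all arrays, 1713 without compost replicate 1 and 2939 without compost replicate 2. Replicate numbers are shared between the groups, but nothing says that they pair the rats: the deviations of same-numbered rats correlated at -0.036 across 28417 probes, which are not independent, and with the replicate block 0 probes were called and 901 had an unadjusted p under 0.05. Apart from these, the causes of the turns were not tested. Ffar2 was the dimmest gene of the set, and its difference was 0.31 with the processed intensities and 0.10 with normexp.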

Other observations

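The carbonic anhydrase gene Car1, an enzyme abundant in colon epithelium, was singled out after its values were seen. It had log2 levels of 1.58 and 1.62 in compost rats, against -2.44 and 2.13 in control rats, so that control replicate 1 lay far below the other 3 rats. Aqp8, a water channel gene on the list of colon and caecum markers, was also lowest in control replicate 1, at -4.55 and -3.75 in compost rats, against -5.79 and -2.53 in control rats, but its spot in control replicate 1 was not well above background. Control replicate 1 was also the rat with the highest Ffar3, at -1.07, the highest Pck1, at 3.39, and the lowest Ldhb, at 1.96. Among the enterocyte markers it was highest for Apoa4, at 9.07, Lct, at -2.99, and Alpi, at -1.87. It was also highest for Vil1, at 6.67, Fabp1, at 8.96, Fabp2, at 8.94, Anpep, at 7.20, and Slc5a1, at 1.64. For Krt20, at 8.79, it was not the highest rat. Control replicate 1 was lowest for the ileal gene Slc10a2, at 5.06, but neither highest nor lowest for the ileal gene Fabp6, at 9.87. These genes too were picked after their values were seen.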
